A study of Rattus norvegicus with 16 samples.

Results

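The genes described here build the walls of brain blood vessels and the blood-brain barrier. They were chosen by symbol from the deposited isoform table: 33 genes for endothelial cells, pericytes, smooth muscle cells and the basement membrane, of which 32 had rows, among 16602 gene symbols in all. Pecam1, an endothelial adhesion molecule, was the 1 gene without a row under its symbol and was not analysed here. The 32 genes had 51 isoforms in the table: 17 genes had 1 isoform and 15 had several, up to 5 for Abcb1a.

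RNA was sequenced from CA1, an output field of the hippocampus, dissected from the dorsal part. All animals were male Sprague-Dawley rats aged 14 days (P14). The 8 kainate rats had been given 2 mg/kg of kainate subcutaneously at P7, which caused seizures, and the 8 control rats saline on the same day, so tissue was taken 7 days after the injection. Slices of 400 µm rested for 60 min in artificial cerebrospinal fluid before CA1 was cut out, in both groups. Each library is numbered as 1 animal in the titles, and nothing further is stated on litters or days, so p-values measure the spread between these libraries.

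Brain capillaries are tubes of endothelial cells sealed to each other by tight junctions, which force most molecules to cross through transporters instead of between cells. Pericytes share a basement membrane with the endothelium and are needed to form and keep the barrier, while smooth muscle cells ring the arteries and arterioles. In rodents the vessels of the brain are still growing in the first postnatal weeks. Seizures are known to open the barrier for a time, and the comparison asks what the RNA of the vessel wall looked like a week later.

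Values are the log2 of a gene's summed isoforms, called gene totals here, 1 per rat, and differences are kainate minus control on that log2 scale. A gene is called when the limma p-value, adjusted over all 16602 genes by the method of Benjamini and Hochberg, is under 0.05. The authors' mean normalized count over all rats, summed over a gene's isoforms, ran from 267 for Emcn to 12392 for Col4a1. For the 51 single isoforms it ran from 22.8 to 12392, against a median of 509 over all isoforms. The depth of each library is unknown. Replicates 1 to 4 of both groups stood apart from replicates 5 to 8 in much of the transcriptome, a split that no label explains. The number that leads each title was lower in all of replicates 1 to 4 than in any of replicates 5 to 8, and its meaning is not given. The difference within each set is therefore also given for the genes described with full values. The summed level of 10 neuronal markers lay between 18.71 and 18.78 in every library, and that of the endothelial genes ran from 15.15 to 15.33. Such sums can hide opposite shifts of single genes. Of the 10 neuronal markers 2 were higher and 3 lower in replicates 1 to 4 past the adjusted threshold. In bulk tissue, fewer vessel cells and less RNA per vessel cell cannot be told apart.

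No vessel gene was called after kainate. Of the 32 genes, 0 passed (0% of all genes did, by limma), 0 had an unadjusted p under 0.05 (1.39% of all genes did), and the smallest unadjusted p was 0.112, for Ocln. All 32 adjusted p-values were 1.00. With the replicate number as a block 0 passed again, and 2 genes, Abcg2 and Ocln, had an unadjusted p under 0.05 (6.6% of all genes did), both at an adjusted p of 0.750. The differences ran from -0.07 for Ocln to 0.09 for Flt1, and the 95% intervals of all 32 genes lay between -0.24 and 0.24, that is, between a ratio of 0.848 and one of 1.18. These intervals and the SEs below come from the fit by group alone, whose spread includes the split between the sets. For Cldn5 the SE was 0.10 there, 0.059 with a term for the sets and 0.047 with the block. For Col4a1 it was 0.11, 0.072 and 0.055, and for Pdgfrb 0.052, 0.050 and 0.054. Kainate and control libraries overlapped in all 32 genes (in 0% of all genes did they not).

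**Figure D1:**
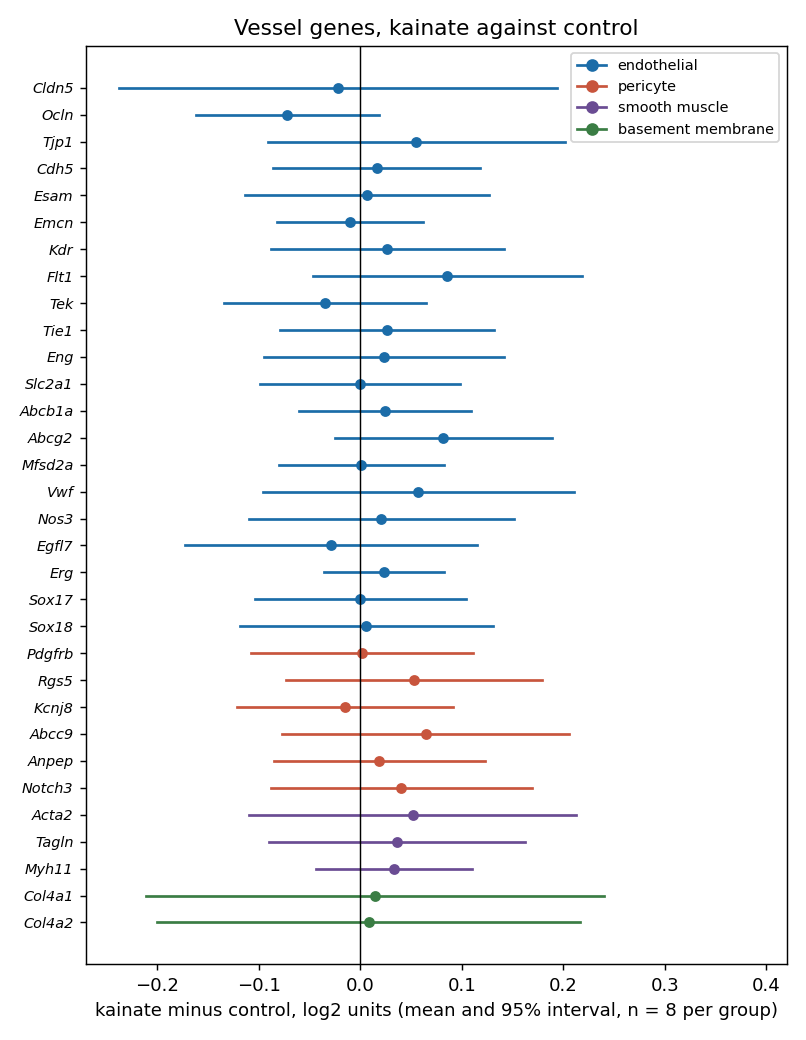
Kainate minus control difference of each vessel gene on the log2 scale (x axis), with the 95% interval as a line and the cell type as colour; n = 8 libraries per group. All 32 intervals cross 0, and the points lie between -0.07 for Ocln and 0.09 for Flt1.

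The mean was higher after kainate in 26 of 32 vessel genes, beside 47.6% of all genes, and the median difference was 0.020, beside -0.0017 over all genes. By cell type the mean was higher in 16 of 21 endothelial genes (median 0.016), 5 of 6 pericyte genes (median 0.030), 3 of 3 smooth muscle genes (median 0.036) and both basement membrane genes (median 0.012). This lean was uneven between the 2 sets of rats. In replicates 5 to 8 the mean was higher in 25 of 32 genes (47.7% of all genes) with a median of 0.051 (-0.0020 over all genes). In replicates 1 to 4 it was higher in 9 of 32 (51.2% of all genes) with a median of -0.0095 (0.0010 over all genes). Without kainate 8 the count was 17 and the median 0.0013, and without control 2 the count was also 17. The difference between the 2 sets of rats in the kainate effect was itself not called for any gene (0 of 32; 0% of all genes), with a smallest unadjusted p of 0.140 for Kcnj8 (limma interaction).

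A few libraries were high or low for many vessel genes at once. Kainate 8 had the highest gene total of all 16 libraries in 12 of the 32 genes, among them Kdr, Vwf, Nos3, Pdgfrb, Abcc9, Notch3, Col4a1 and Col4a2. Control 2 had the lowest in 8, namely Esam, Kdr, Tek, Nos3, Kcnj8, Anpep and both collagens. Within its set of 8 libraries, kainate 6 was lowest in 12 genes, and control 7 lay above its set's mean in 27, control 3 in 29 and control 6 in 3. High and low libraries were found in both groups. The median over all genes differed from the set mean by at most 0.0028 in any library.

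**Figure D2:**
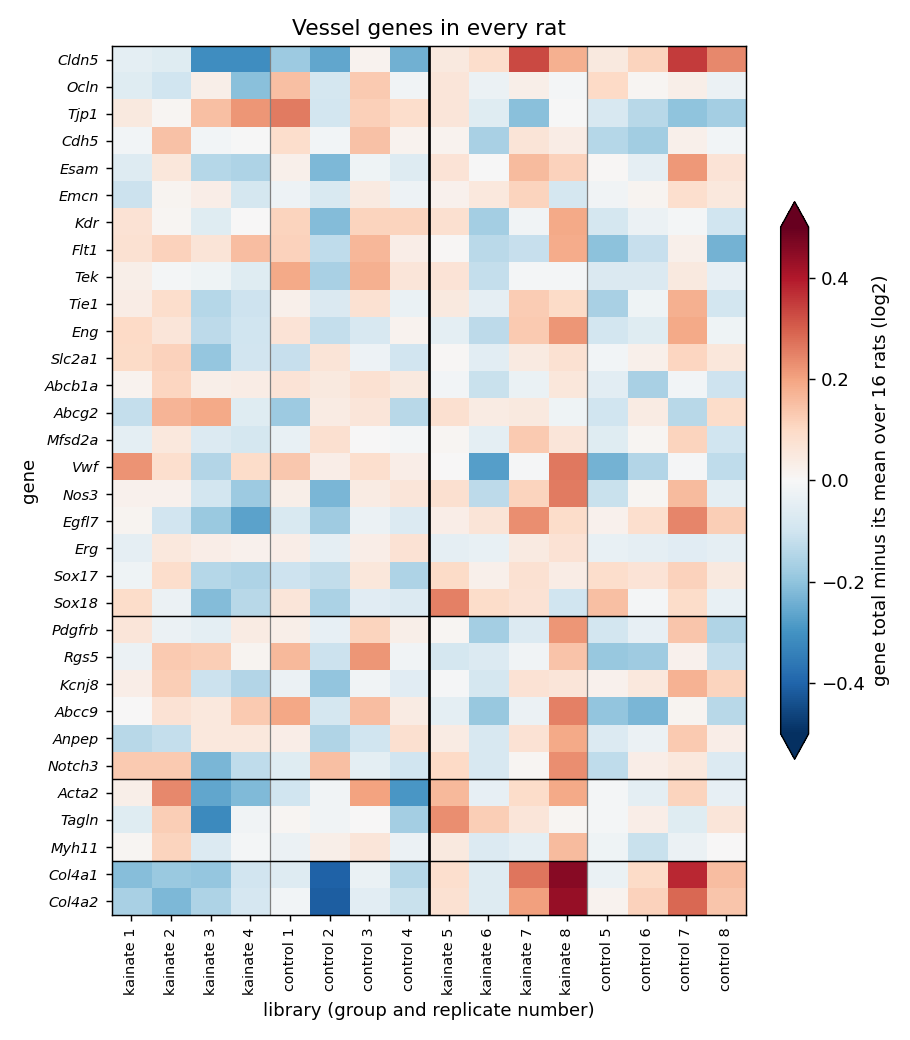
Gene total of each vessel gene (rows, ordered by cell type) in each library (columns, replicates 1 to 4 left of the black line and 5 to 8 right of it), as the deviation from the gene's mean over 16 rats on the log2 scale. Kainate 8 is high and control 2 low over many rows, and Cldn5, Egfl7, Col4a1 and Col4a2 are mostly low on the left and high on the right in both groups.

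Of the tight junction genes, Ocln encodes occludin, a membrane protein of the junction strand, and had the lowest p of the 32 genes. Its gene total ran from 9.19 over a median of 9.38 to 9.46 after kainate and from 9.31 over 9.42 to 9.55 in controls. When rats with the same number were set side by side, the kainate rat had the higher value in 1 of 8 pairs. The ranges overlapped, and the difference was -0.07 ± 0.043 (SE, n = 8 per group). It was -0.13 in replicates 1 to 4 and -0.02 in replicates 5 to 8.

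Cldn5 encodes claudin-5, the main claudin of the blood-brain barrier. Its gene total was between 11.94 and 12.58 after kainate (median 12.25) and between 11.99 and 12.60 in controls (median 12.29), a difference of -0.02 ± 0.10 (SE, n = 8 per group), at -0.02 in replicates 1 to 4 and -0.03 in replicates 5 to 8. What separated the libraries was the set: replicates 1 to 4 lay between 11.94 and 12.27 and replicates 5 to 8 between 12.30 and 12.60, with no overlap. Tjp1 encodes ZO-1, the scaffold that ties junction proteins to actin. Its gene total ran from 12.61 over a median of 12.85 to 13.04 after kainate and from 12.62 over 12.73 to 13.08 in controls, a difference of 0.06 ± 0.070 (SE, n = 8 per group), at 0.01 in replicates 1 to 4 and 0.10 in replicates 5 to 8.

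The promoter window of Cldn5 is printed because the gene had the largest difference between the sets. It covers 250 bases before and 50 after the start site in the RefSeq annotation of GRCr8, on the minus strand at chr11:95718549-95718848, and the capitals mark a GC box (GGGCGG on either strand) and CCAAT boxes (CCAAT on either strand).
Cldn5: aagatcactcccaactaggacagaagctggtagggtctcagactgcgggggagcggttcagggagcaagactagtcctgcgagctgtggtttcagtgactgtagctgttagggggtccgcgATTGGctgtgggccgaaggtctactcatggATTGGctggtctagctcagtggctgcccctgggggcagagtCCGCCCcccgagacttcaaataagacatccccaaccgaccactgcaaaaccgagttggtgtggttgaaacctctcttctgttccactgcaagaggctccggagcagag

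Genes of other junctional and surface proteins of the endothelium were not called. Cdh5 encodes VE-cadherin, the cadherin of endothelial contacts, and differed by 0.02 ± 0.048. Esam, an adhesion molecule at the same contacts, differed by 0.0069 ± 0.057, and Emcn, which encodes the surface sialomucin endomucin, by -0.01 ± 0.034 (SE, n = 8 per group). Control 7 was highest and control 2 lowest for Esam, so its extremes were both control rats.

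Of the growth factor receptors, Flt1 had the greatest difference of all 32 genes. Flt1 encodes VEGF receptor 1, which binds VEGF-A tightly and, in its soluble form, holds it away from Kdr. Its gene total ran from 10.77 over a median of 10.98 to 11.09 after kainate and from 10.67 over 10.86 to 11.07 in controls. The kainate rat was the higher in 4 of 8 pairs, and the difference of 0.09 ± 0.063 (SE, n = 8 per group) was within the spread. It was 0.05 in replicates 1 to 4 and 0.12 in replicates 5 to 8, and 0.04 without both libraries of replicate 8. Kdr, the main signalling receptor for VEGF-A, differed by 0.03 ± 0.055. Tek, the angiopoietin receptor Tie2, differed by -0.03 ± 0.047, and Tie1, its partner receptor, by 0.03 ± 0.050. Eng, the TGF-beta co-receptor endoglin, differed by 0.02 ± 0.056 (SE, n = 8 per group).

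Among the transporters, Abcg2 had the lowest p. It encodes the efflux pump BCRP, which returns drugs to the blood. Its gene total ran from 7.95 over a median of 8.12 to 8.26 after kainate and from 7.89 over 8.04 to 8.16 in controls, with the kainate rat higher in 6 of 8 pairs. The groups overlapped, although the 2 highest libraries, kainate 2 and kainate 3, were both kainate rats. The difference was 0.08 ± 0.051 (SE, n = 8 per group), at 0.10 in replicates 1 to 4 and 0.07 in replicates 5 to 8. Abcb1a, which encodes the efflux pump P-glycoprotein, differed by 0.02 ± 0.040. Slc2a1, the glucose transporter GLUT1, differed by 0.00013 ± 0.047, and Mfsd2a, which carries lysophospholipids with omega-3 fatty acids and keeps vesicle transport through the cell low, by 0.0011 ± 0.039 (SE, n = 8 per group). For GLUT1 the 95% interval was -0.10 to 0.10.

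The remaining endothelial genes encode secreted products, an enzyme and transcription factors. Vwf, the clotting protein von Willebrand factor, had gene totals of 11.33 to 11.87 after kainate (median 11.65) and 11.37 to 11.74 in controls (median 11.62). Its difference of 0.06 ± 0.073 (SE, n = 8 per group) was -0.01 in replicates 1 to 4 and 0.12 in replicates 5 to 8, where kainate 8 was the highest and kainate 6 the lowest of all libraries. Nos3, the endothelial nitric oxide synthase, differed by 0.02 ± 0.062. Egfl7, a secreted matrix protein of endothelial cells, had gene totals of 9.39 to 9.89 after kainate (median 9.68) and 9.48 to 9.90 in controls (median 9.66), and differed by -0.03 ± 0.069, at -0.04 in replicates 1 to 4 and -0.02 in replicates 5 to 8. The ETS factor Erg, which maintains endothelial identity, differed by 0.02 ± 0.028, and its range over all 16 libraries, 0.13, was the narrowest of the 32 genes. The SOX factors Sox17 and Sox18 differed by 0.00013 ± 0.049 and 0.0058 ± 0.059 (SE, n = 8 per group).

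Pericyte genes held 2 of the 6 lowest p-values. Abcc9 and Kcnj8 encode the SUR2 and Kir6.1 subunits of the pericyte KATP channel. The gene total of Abcc9 ran from 10.87 over a median of 11.09 to 11.31 after kainate and from 10.83 over 11.02 to 11.25 in controls, a difference of 0.06 ± 0.067 (SE, n = 8 per group). It was -0.0075 in replicates 1 to 4 and 0.14 in replicates 5 to 8, and 0.02 without both libraries of replicate 8. Kcnj8 had a lower mean after kainate, with a difference of -0.01 ± 0.051; in replicates 1 to 4 it was 0.05 and in replicates 5 to 8 it was -0.08. Rgs5, a regulator of G protein signalling used as a pericyte marker, had gene totals of 11.16 to 11.39 after kainate (median 11.25) and 11.06 to 11.47 in controls (median 11.18), a difference of 0.05 ± 0.060. It was -0.0016 in replicates 1 to 4 and 0.11 in replicates 5 to 8. Pdgfrb, the PDGF receptor that recruits pericytes, differed by 0.0020 ± 0.052, Anpep, the surface peptidase CD13, by 0.02 ± 0.050, and Notch3, the Notch receptor of mural cells, by 0.04 ± 0.061 (SE, n = 8 per group).

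Smooth muscle genes encode the contractile apparatus. Myh11, the smooth muscle myosin heavy chain, had gene totals of 8.52 to 8.75 after kainate (median 8.59) and 8.48 to 8.65 in controls (median 8.56), a difference of 0.03 ± 0.036 (SE, n = 8 per group), at 0.0038 in replicates 1 to 4 and 0.06 in replicates 5 to 8. Acta2, smooth muscle alpha-actin, ranged more widely, from 8.29 to 8.79 after kainate (median 8.61) and from 8.26 to 8.75 in controls (median 8.52), and differed by 0.05 ± 0.077, at 0.0016 and 0.10 in the 2 sets. Tagln, the actin-binding protein transgelin, differed by 0.04 ± 0.060 (SE, n = 8 per group), at -0.03 in replicates 1 to 4 and 0.10 in replicates 5 to 8. The lowest Tagln library, kainate 3 at 8.98, and the highest, kainate 5 at 9.53, were both kainate rats.

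Col4a1 and Col4a2 encode the collagen IV chains that assemble together into the vessel basement membrane. Col4a1 had gene totals of 13.35 to 14.02 after kainate (median 13.48) and 13.16 to 13.94 in controls (median 13.53), and differed by 0.01 ± 0.11. Col4a2 had gene totals of 12.89 to 13.55 after kainate (median 13.04) and 12.70 to 13.40 in controls (median 13.11), and differed by 0.0084 ± 0.099 (SE, n = 8 per group). Their ranges over all libraries, 0.863 and 0.856, were the widest of the 32 genes, with kainate 8 highest and control 2 lowest for both. Within replicates 1 to 4 the difference was -0.0090 for Col4a1 and -0.0046 for Col4a2, and within replicates 5 to 8 it was 0.04 and 0.02. Without kainate 8 the difference was -0.05 for each, and without control 7 it was 0.07 for Col4a1 and 0.05 for Col4a2.

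**Figure D3:**
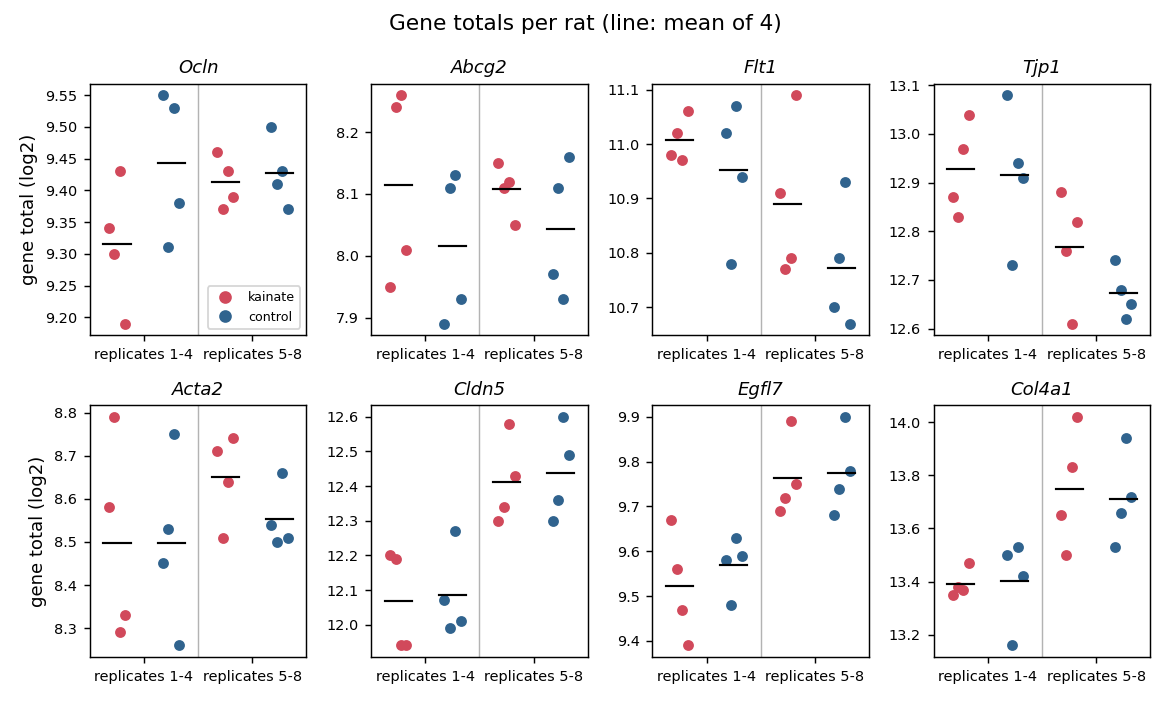
Gene total (log2, y axis) of 8 vessel genes in each rat, 1 point per rat, with kainate in red, control in blue, and the mean of 4 rats as a line; replicates 1 to 4 are on the left of each panel and 5 to 8 on the right. Kainate and control points overlap within each set in all 8 genes, while Cldn5 and Egfl7 lie lower in all rats numbered 1 to 4.

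The split between replicates 1 to 4 and 5 to 8 touched several vessel genes, and unequally. It was found in these same libraries, so its numbers describe the separation and are no test of a cause. Of the 32 genes, 9 passed the adjusted threshold between the sets (42.5% of all genes did), 3 higher in replicates 1 to 4 (19.3% of all genes) and 6 lower (23.3%). The sets did not overlap in 2 genes, Cldn5 and Egfl7 (10.7% of all genes). Cldn5 was 0.35 ± 0.059 lower in replicates 1 to 4, Col4a1 0.33 ± 0.072 lower, Col4a2 0.30 ± 0.067 lower and Egfl7 0.22 ± 0.043 lower (SE, n = 8 per set). Esam was 0.15 ± 0.044 lower there and Sox17 0.14 ± 0.036 lower. Tjp1 was 0.20 ± 0.049 higher in replicates 1 to 4, Flt1 0.15 ± 0.051 higher and Abcb1a 0.11 ± 0.030 higher (SE, n = 8 per set). Genes listed under 1 cell type therefore went both ways: 4 genes of the endothelial list were lower and 3 higher. The threshold was passed by 0 of 6 pericyte and 0 of 3 smooth muscle genes. How much of each RNA came from the listed cell type was not tested. Without kainate 8, 14 genes passed. These fits take the 16 libraries as independent, although same-numbered libraries were taken as pairs and lie in the same set. With 1 mean per number, 4 against 4, the same 9 genes passed (33.1% of all genes did, by limma), a comparison added after the data were seen.

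**Figure D4:**
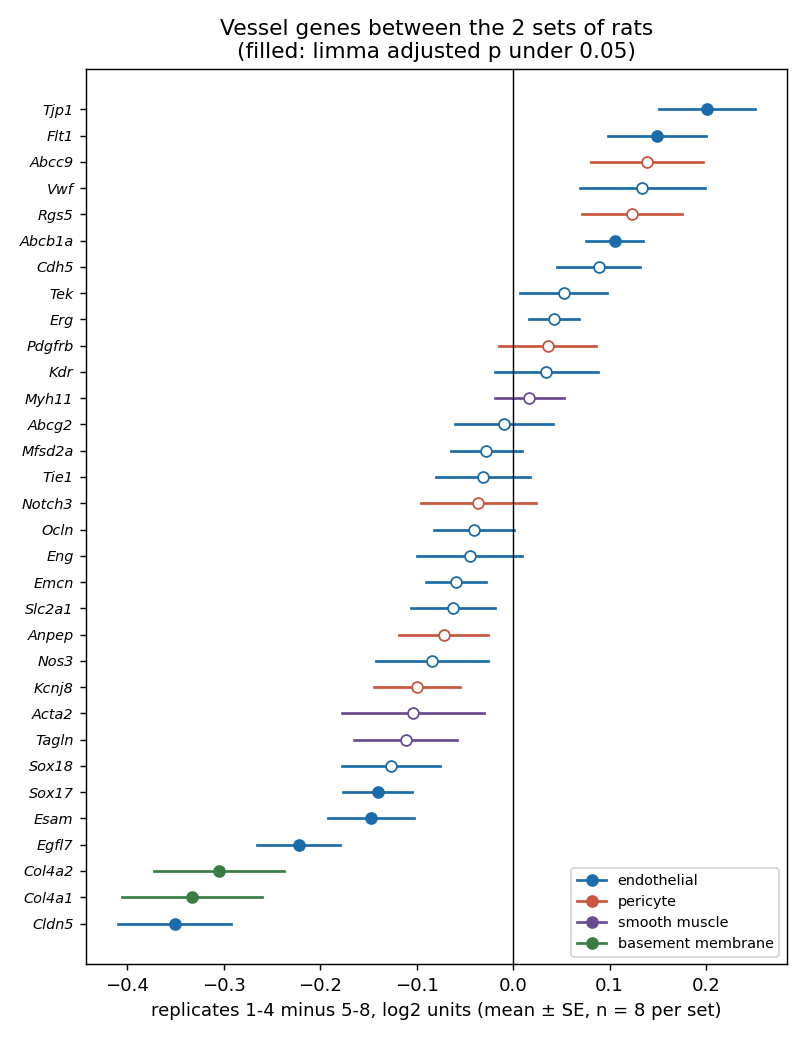
Difference between replicates 1 to 4 and replicates 5 to 8 of both groups for each vessel gene (log2, mean and SE, n = 8 libraries per set), ordered by size, with filled points past an adjusted p of 0.05 by limma. Cldn5, Col4a1, Col4a2 and Egfl7 are lowest in replicates 1 to 4 and Tjp1 is highest.

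Markers of other cell types differed between the sets in some lists, and their part in these differences was not tested. The shares to set beside them are the 19.3% of all genes higher and 23.3% lower in replicates 1 to 4. Of 9 microglial markers 4 were lower in replicates 1 to 4 and 0 higher, and their summed level was 14.03 to 14.17 there and 14.11 to 14.34 in replicates 5 to 8. Of 8 choroid plexus and ependymal markers 3 were lower and 0 higher, at 10.54 to 10.95 against 10.66 to 11.002. Of 13 perivascular fibroblast and meningeal markers 4 were lower and 1 higher, at 14.27 to 14.43 against 14.27 to 14.54. Of 5 red blood cell genes 1 was lower and 0 higher, at 14.20 to 14.66 against 14.25 to 14.89. Of 10 neuronal markers 3 were lower and 2 higher, and of 12 astrocyte end-foot genes 2 were lower and 3 higher. Of 6 perivascular macrophage markers 0 passed in either direction. Lists of further vessel wall genes, apart from those described above, also went both ways. Other basement membrane genes had 2 of 19 lower and 7 higher, whereas both collagen IV genes were lower. Further endothelial markers had 6 of 25 lower and 2 higher, and further mural markers 7 of 26 lower and 3 higher.

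At the level of single isoforms, 0 of 51 passed (0% of all 21698 isoforms did, by limma). The isoform of Abcg2 ENSRNOT00000088983 alone had an unadjusted p under 0.05 (1.5% of all isoforms did). Its values ran from 6.68 to 6.91 after kainate and from 6.50 to 6.89 in controls, higher after kainate in 7 of 8 pairs, a difference of 0.11 ± 0.050 (SE, n = 8 per group). Of the 51 isoforms, 4 had, in the authors' deposited table, a p under 0.05 (5.66% of all isoforms did) and 0 an adjusted p under 0.05. They were the Abcg2 isoform with a ratio of 1.11, the Tjp1 isoform ENSRNOT00000087332 with a ratio of 1.13 (adjusted p = 0.488), the Abcb1a isoform ENSRNOT00000037712 with 1.09 and the Ocln isoform ENSRNOT00000024674 with 0.910, in the authors' deposited table. The smallest adjusted p of these 51 isoforms in the authors' deposited table was that of Tjp1. For 5 of the 51 the adjusted p was empty there.

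Tjp1 and Ocln each had 2 isoforms with unlike mean differences, and they were not the only such genes. For Myh11, ENSRNOT00000084608 differed by 0.05 ± 0.040 and ENSRNOT00000087567 by -0.08 ± 0.047 (SE, n = 8 per group). ENSRNOT00000087332 of Tjp1 was higher after kainate in 7 of 8 pairs, at 11.56 ± 0.18 against 11.41 ± 0.17 (SD, n = 8), a difference of 0.15 ± 0.084 (SE). The other Tjp1 isoform, ENSRNOT00000014988, was at 12.08 ± 0.14 against 12.09 ± 0.20 (SD, n = 8). For Ocln, ENSRNOT00000024674 was lower after kainate in 7 of 8 pairs, at 9.15 ± 0.14 against 9.26 ± 0.11 (SD, n = 8), and ENSRNOT00000084667 had the higher mean, at 6.45 ± 0.24 against 6.33 ± 0.13 (SD, n = 8). A single library, kainate 4, was the lowest of all for the first at 8.84 and the highest for the second at 7.01. Isoform usage was called for 0 of the 15 genes with several isoforms (0% of 3774 genes, limma's diffSplice), and Ocln alone had an unadjusted p under 0.05 (1.96% of all genes did). With the replicate block Ocln was again the only such gene (6.12% of all genes), at an adjusted p of 0.690.

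Some isoforms varied far more than their gene. The Pdgfrb isoform ENSRNOT00000086033 ran from 6.90 to 9.50 over the 16 libraries, with values above 9 in kainate 2, kainate 7, control 1 and control 8. The gene total of Pdgfrb stayed between 11.40 and 11.79. ENSRNOT00000078764 of the same gene was near its floor of 4.69 in 13 libraries and at 5.68, 5.64 and 5.88 in kainate 1, kainate 2 and control 2. The Kdr isoform ENSRNOT00000085089 and the Abcb1a isoform ENSRNOT00000082359 were 0.48 ± 0.092 and 0.53 ± 0.14 higher in replicates 1 to 4 (SE, n = 8 per set), beside 0.03 ± 0.053 and 0.11 ± 0.030 for the totals of those genes.

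Gene pairs fixed by role were compared within each set of 8 libraries, 9 pairs and 18 relations in all, with the libraries permuted singly and not by number. The collagen IV chains varied closely together. Col4a1 and Col4a2 correlated with r = 0.960 in replicates 1 to 4 (rho = 0.905; exact permutation p = 0.00102 for r and 0.00456 for rho, adjusted 0.00915 and 0.0411) and with r = 0.983 in replicates 5 to 8 (rho = 1; exact permutation p = 2.48e-05 and 4.96e-05, adjusted 0.000446 and 0.000893). Without the 2 libraries farthest from the median of Col4a1, r was 0.871 and 0.971. The libraries at the ends were control 2, at 13.16 and 12.70, and kainate 8, at 14.02 and 13.55.

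Both genes lie head to head on chromosome 16, and their promoter windows are printed because they share DNA. A link between the shared DNA and how the genes varied was not tested. In the RefSeq annotation of GRCr8 the start sites are 77 bases apart on opposite strands, Col4a1 at chr16:84885347-84885646 on the plus strand and Col4a2 at chr16:84885471-84885770 on the minus strand, and the windows have 176 bases in common, identical after reverse complement. Capitals mark GC boxes and CCAAT boxes.
Col4a1: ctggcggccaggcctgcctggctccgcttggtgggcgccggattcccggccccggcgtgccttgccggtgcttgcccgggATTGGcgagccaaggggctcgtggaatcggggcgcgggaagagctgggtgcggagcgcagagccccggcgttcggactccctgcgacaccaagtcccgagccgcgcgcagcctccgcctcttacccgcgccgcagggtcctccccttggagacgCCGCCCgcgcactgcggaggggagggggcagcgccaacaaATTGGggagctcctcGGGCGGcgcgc
Col4a2: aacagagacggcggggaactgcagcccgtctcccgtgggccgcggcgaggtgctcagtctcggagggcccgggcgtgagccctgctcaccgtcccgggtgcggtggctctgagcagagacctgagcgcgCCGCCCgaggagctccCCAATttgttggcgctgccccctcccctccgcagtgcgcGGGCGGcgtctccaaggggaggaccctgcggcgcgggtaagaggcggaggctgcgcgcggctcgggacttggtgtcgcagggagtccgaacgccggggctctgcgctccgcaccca
The window of Col4a1 held 2 GC boxes and 2 CCAAT boxes and that of Col4a2 2 and 1. All boxes of the Col4a2 window lie in the common bases and are the same sites as boxes of the Col4a1 window. Both windows are nevertheless counted below. Over the 22 vessel genes with a promoter in the table (23 windows; 10 genes had none) a GC box was found in 15 windows (65.2%, beside 33.1% of 33469 promoters) and a CCAAT box in 8 (34.8%, beside 37.5%). A TATA box (TATAAA) was found in 2 windows (8.7%, beside 14.2%). The ETS motif (CCGGAAG) was found in 0 of the 23 windows (beside 8.75%) and the LEF/TCF motif (CTTTGAT) in 0 (beside 3.63%).

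Among the contractile genes, Acta2 and Myh11 varied together in replicates 1 to 4. Their r was 0.903 (rho = 0.857; exact permutation p = 0.00159 and 0.0107, adjusted 0.00952 and 0.0643), and 0.748 without the 2 farthest libraries. In replicates 5 to 8 it was 0.751 (rho = 0.690; exact permutation p = 0.0188 and 0.0694, adjusted 0.0565 and 0.208), and 0.237 without the 2 farthest, so there the relation rested on those libraries. Tagln and Acta2 had r = 0.734 in replicates 1 to 4 (rho = 0.738; exact permutation p = 0.0299 and 0.0458, adjusted 0.0710 and 0.165; r = 0.614 without the 2 farthest) and r = 0.125 in replicates 5 to 8 (rho = -0.143; exact permutation p = 0.780 and 0.752, adjusted 0.817 and 0.846; r = -0.518 without). Tagln and Myh11 had r = 0.809 (rho = 0.619; exact permutation p = 0.0154 and 0.115, adjusted 0.0554 and 0.296; r = 0.687 without) and then r = 0.0895 (rho = 0.0238; exact permutation p = 0.817 and 0.977, adjusted 0.817 and 0.977; r = -0.392 without). That the sets differ in this was not tested.

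The promoter window of Acta2 is printed for its CArG boxes, the binding motif of serum response factor, which drives contractile genes with its partner myocardin. The strict motif was found in 0 of the 23 windows and in 1.64% of all promoters. With at most 1 G or C allowed in its middle it was found in 4 windows (17.4%, beside 9.42%), and the Acta2 window, on the minus strand at chr1:241172454-241172753 of GRCr8, was the only one of the 23 with 2 such matches, in capitals.
Acta2: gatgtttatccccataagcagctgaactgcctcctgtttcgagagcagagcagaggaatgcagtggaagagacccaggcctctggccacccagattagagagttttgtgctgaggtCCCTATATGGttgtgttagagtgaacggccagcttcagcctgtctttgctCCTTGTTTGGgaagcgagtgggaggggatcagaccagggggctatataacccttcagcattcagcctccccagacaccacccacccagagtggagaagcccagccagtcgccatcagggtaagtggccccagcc

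The other 5 pairs were taken within and across cell types. Cldn5 and Acta2 correlated in replicates 1 to 4 with r = 0.867 (rho = 0.738; exact permutation p = 0.00880 and 0.0458, adjusted 0.0396 and 0.165; r = 0.851 without the 2 farthest), and in replicates 5 to 8 with r = 0.228 (rho = 0.0238; exact permutation p = 0.565 and 0.977, adjusted 0.636 and 0.977; r = -0.0644 without). Cldn5 and Cdh5, both endothelial, had r of 0.678 and 0.668 in the 2 sets (rho of 0.476 and 0.524; exact permutation, adjusted p = 0.134 each for r, 0.365 and 0.354 for rho), and 0.953 and 0.455 without the 2 farthest. Rgs5 and Pdgfrb had r of 0.273 and 0.750 (rho of 0.190 and 0.548; exact permutation, adjusted p = 0.602 and 0.0710 for r, 0.798 and 0.342 for rho), and -0.674 and 0.459 without the 2 farthest. Cldn5 and Rgs5 had r of 0.423 and 0.487 (rho of 0.357 and 0.548; exact permutation, adjusted p = 0.413 and 0.363 for r, 0.539 and 0.342 for rho), and 0.403 and 0.367 without. The KATP subunits Kcnj8 and Abcc9 lie on the same chromosome with start sites 139800 bases apart in GRCr8. They had r of 0.310 and 0.316 (rho of 0.262 and 0.50; exact permutation, adjusted p = 0.588 each for r, 0.690 and 0.354 for rho), and -0.151 and 0.0248 without. By r all 18 relations were positive, and 4 passed at an adjusted p under 0.05 for r, of which both collagen relations also passed for rho. These counts have no background beside them, since r was not computed for other gene pairs. Cldn5 and Acta2 were each in several pairs, and a few libraries were high or low for many vessel genes at once.

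**Figure D5:**
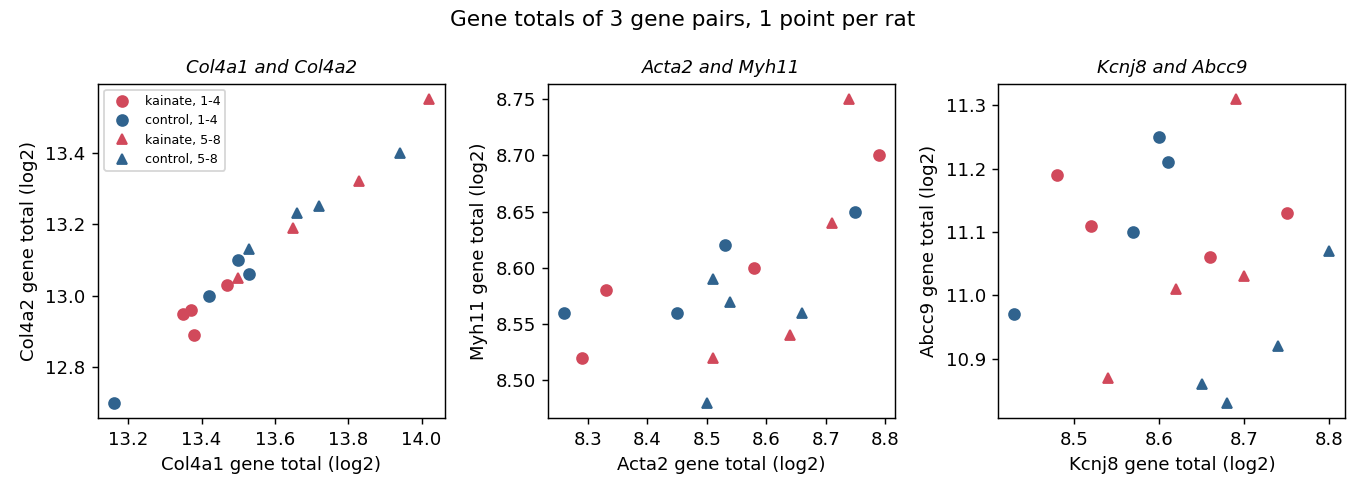
Gene totals (log2) of 3 gene pairs, 1 point per rat, circles for replicates 1 to 4 and triangles for 5 to 8, kainate in red and control in blue. Col4a1 and Col4a2 lie on 1 line through both sets, Acta2 and Myh11 rise together in replicates 1 to 4, and Kcnj8 and Abcc9 scatter.

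The pathways around these genes gave 0 called genes in each of 16 further lists (0% of all genes), and the unadjusted values below come from limma. To set beside the counts of these lists, 47.6% of all genes had a higher mean after kainate, and the median over all genes was -0.0017. Of 10 other tight junction genes 4 had a higher mean and the median was -0.02; Jam3, a junctional adhesion molecule, differed by -0.06 ± 0.036. Of 18 vessel growth ligands and receptors 13 had a higher mean (median 0.0093), led by the VEGF co-receptor Nrp2 at 0.11 ± 0.077 and the endothelial phosphatase Ptprb at 0.08 ± 0.080. Of 16 genes of Wnt barrier signalling, which induces the barrier, 9 had a higher mean (median 0.01), with Sox7 at 0.05 ± 0.042. Of 26 genes of Notch and TGF-beta signalling 15 had a higher mean (median 0.0018), with Id1, a target of BMP signalling, at -0.10 ± 0.073 and the endothelial receptor Notch4 at 0.06 ± 0.050 (SE, n = 8 per group).

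Of 23 other barrier transporters 12 had a higher mean (median 0.0024), with the glutamine transporter Slc38a3 at -0.05 ± 0.045. Of 19 other basement membrane genes 14 had a higher mean (median 0.03), with fibronectin, Fn1, at 0.06 ± 0.064 and agrin, Agrn, at 0.05 ± 0.062. Of 6 leukocyte adhesion genes 1 had a higher mean (median -0.01); Plvap, a protein of fenestrated endothelium that a mature barrier lacks, was at 5.35 ± 0.037 after kainate and 5.38 ± 0.020 in controls (SD, n = 8). Of 25 endothelial markers outside the 32 genes 14 had a higher mean (median 0.0056), with the carbonic anhydrase Car4 at -0.09 ± 0.053, and of 26 mural markers 15 (median 0.0061), with the endothelin receptor Ednra at -0.08 ± 0.062 (SE, n = 8 per group).

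Markers of the cells around the vessels were not called either. Of 13 perivascular fibroblast and meningeal markers 7 had a higher mean (median 0.0015). Ptgds, prostaglandin D synthase, alone had an unadjusted p under 0.05 (1.39% of all genes did), at -0.08 ± 0.038. Of 6 perivascular macrophage markers 5 had a higher mean (median 0.03), with the mannose receptor Mrc1 at 0.05 ± 0.047. Of 12 astrocyte end-foot genes 7 had a higher mean (median 0.0065), with the filament protein Gfap at -0.07 ± 0.057. Of 9 microglial markers 2 had a higher mean (median -0.02), with Aif1 at -0.08 ± 0.066, of 5 red blood cell genes 4 (median 0.03), with Hba-a2 at 0.08 ± 0.11, and of 10 neuronal markers 7 (median 0.02), with Rbfox3 at 0.07 ± 0.041 (SE, n = 8 per group).

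Choroid plexus and ependymal markers, from tissue that borders the hippocampus, had a higher mean in 2 of 8 genes with a median of -0.06. Ccdc153 differed by -0.26 ± 0.11 and Cfap126 by -0.15 ± 0.070 (SE, n = 8 per group, limma adjusted p = 1.00 each). They were the only genes of the list with an unadjusted p under 0.05 (1.39% of all genes did). The summed level of the list ran from 10.54 to 10.94 after kainate and from 10.59 to 11.002 in controls. How much of such tissue each dissection held, and its part in the vessel values, was not tested.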

How the data were processed

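Per the submitters' processing notes, Trim Galore, RSEM, DESeq2, SAMtools and GATK were used; for the aligner, genome build, annotation and versions, nothing is given in the sources used here. Per isoform and library the authors deposited a value on a log2 scale whose transform is not named; from the values, each isoform has its own floor, so differences of weak isoforms are compressed. The deposited table also gives the authors' mean normalized count (a signal averaged over libraries), their log2 fold change, Wald score, p-value, adjusted p-value and ratio (fold) per isoform. Library depth is unknown, so no counting interval is given, and other deposited tables were not used. No 2 libraries were identical, and 0 of the 51 isoforms shared all values with another isoform.

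Gene totals were the log2 of the sum of the isoforms' 2-power values, with no pseudocount, filter or further scaling. They were fitted with limma 3.58.1 in R 4.3.3 (mean-variance trend, robust empirical Bayes), with the group as the sole term, all 16 libraries and two-sided tests, and p-values were adjusted over all 16602 genes. Isoform usage used limma's diffSplice (Simes). Correlations used all 40320 permutations of 8 libraries, for 9 of 10 planned pairs, since the tenth needed Pecam1. The smallest p they can give is 2.48e-05.

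Kainate and control libraries with the same number deviated together from their group means in each of 8 pairs (r of 0.127 to 0.781 over isoforms, limit 0.1), so the numbers in the titles were taken as pairs. With the split between replicates 1 to 4 and 5 to 8 removed, these r values lay between -0.35 and 0.67 (median 0.17). Pairs 1 and 8 were then below the limit, at -0.35 and -0.11. No label states a pairing. Within each group the replicate numbers rise with a number that leads each title, so rats with the same number share a rank in their groups. Counts over pairs and the fits with the replicate block therefore only describe rats with the same number.

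The vessel genes, the lists and the split were chosen with earlier results of these data known. Full values are given for the 6 genes with the lowest p, the 6 with the largest difference and the 6 with the largest difference between the sets, and 3 genes by p of each further list were eligible for naming. Promoters came from RefSeq (GRCr8), matched by symbol, and motifs were searched on both strands. Figures were drawn with matplotlib 3.10.9.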

Additional observations from a re-analysis of the deposited data

Results flagged for a closer look

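In each gene total and isoform, each group of 8 libraries was searched for a single library far from the other 7 (gap to its neighbour beyond Dixon's 95% critical value). Of 132 groups 6 had one, all in isoforms, where chance gives about 5%.

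The Ocln isoform ENSRNOT00000024674 was at 8.84 in kainate 4, where the other kainate libraries lay between 9.10 and 9.29. In the same library the second Ocln isoform, ENSRNOT00000084667, was at 7.01, where the others lay between 6.25 and 6.47. The Erg isoform ENSRNOT00000078818 was at 6.91 in kainate 1, below 7.09 to 7.23 in the others. The Pdgfrb isoform ENSRNOT00000068535 was at 10.96 in control 8, below 11.31 to 11.61. ENSRNOT00000078764 of Pdgfrb was at 5.88 in control 2, above 4.69 to 4.70. The Anpep isoform ENSRNOT00000020002 was at 4.65 in kainate 2, above 4.08 to 4.34.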

How the results depend on the processing

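No vessel gene was called for kainate against control under any of the 32 alternatives. These were the replicate block, a term for the 2 sets, a minimum mean count of 50 and centring. The strongest isoform, no trend or robust fit, and each set alone were others, and each library or pair was left out. Single isoforms were fitted in all but the strongest-isoform setting, and none was called. Isoform usage was run only with the block, the term for the sets, and libraries or pairs left out, and none was called. With the replicate block 0 vessel genes passed (smallest adjusted p = 0.750), and over all alternatives the smallest was 0.723. Of 1024 single-gene differences under alternatives 139 had the other sign, in 27 genes, none of them called, and the largest move was 0.073. The count of genes with a higher mean after kainate was 9 in replicates 1 to 4 alone, and 17 to 30 over the fits that left out libraries (17 without kainate 8, without control 2, or without both libraries of replicate 2). The count of genes past the threshold between the sets was 8 to 14 when libraries were left out, with 14 without kainate 8. With 1 value per replicate number it was 9, and the kainate effect differed between the sets in 0 genes (smallest adjusted p = 0.999). Of the 18 relations between gene pairs, 4 passed by Pearson's r, 6 with each library centred on its median and 4 with the strongest isoform. The alternatives for these counts of higher means and their median were added after the data were seen. Unknown depth and the compressed scale limit what weak isoforms can show.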
